A study of Mus musculus with 2 samples.

Results

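The proteasome subunit genes described here are all genes of the count tables whose symbol starts with Psma, Psmb, Psmc, Psmd, Psme, Psmf or Psmg, without the inducible catalytic genes Psmb8, Psmb9 and Psmb10 and without pseudogenes. This rule gave 47 of the 32285 genes listed, and it used no measured value. The members comprise 8 alpha ring and 8 beta ring genes of the 20S core, 17 genes of the 19S regulatory particle (6 ATPases and 3 other subunits of its base, and 8 lid subunits), 5 activator genes, the inhibitor gene Psmf1 and 7 assembly chaperone genes. The remaining member, Psmc3ip, shares only the start of its symbol: it encodes a meiotic protein that binds the product of Psmc3 and is not a proteasome subunit.

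The proteasome is the cell's main protease for proteins that have been tagged with ubiquitin. Its barrel-shaped 20S core has outer rings of alpha subunits, which form the gate, and inner rings of beta subunits, of which Psmb5, Psmb6 and Psmb7 carry the chymotrypsin-like, caspase-like and trypsin-like active sites. The 19S particle caps the core: its lid removes ubiquitin, and the ATPases of its base unfold the substrate and thread it into the barrel. Inflammatory signals can replace the constitutive catalytic subunits by Psmb8, Psmb9 and Psmb10, and the transcription factors NRF1 and NRF2, acting through antioxidant response elements, can raise the transcription of subunit genes.

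The data are UMI counts, in which each captured RNA molecule counts once, from kidney sections on Visium slides, on which each barcoded spot captures polyadenylated RNA from a small tissue area, often from several cells and more than 1 cell type. Of the study's 6 C57BL/6 mice, all with unilateral ureteral obstruction, 1 section came from a mouse that received SH045, a small-molecule inhibitor of the cation channel TRPC6, and 1 from a mouse that received Vehicle, with kidneys taken 7 days after the operation. The labels assign both sections to the obstruction surgery, and no dose, age or sex is given in the sources used here. With 1 section of 1 mouse in each group there is no replicate, so no difference between the sections carries a test, and treatment, mouse, section and position in the kidney cannot be told apart.

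The SH045 section held 22388623 UMIs in 790 spots (median 27733 per spot) against 4327613 UMIs over 676 spots in the section labelled Vehicle (median 4932.5 per spot). The spot barcodes are grid positions, and 335 of them are on both lists. The share of mitochondrially encoded UMIs was 4.24% under SH045 and 10.4% in the section labelled Vehicle. The section labelled Vehicle carried few transcripts of tubular injury: the 12 injured tubule markers, all higher in the SH045-treated section, summed to 27273 CPM (UMIs scaled to a section total of 1000000) in the SH045-treated section and 1592 CPM in the other, where Havcr1, the gene of kidney injury molecule 1, had 7 UMIs, Lcn2, the lipocalin 2 gene, had 9 and Krt20 had none. Markers of the proximal tubule summed to 15728 against 56269 CPM and those of distal and connecting tubule to 554 against 22741 CPM. Against these sums, 1 of 13 proximal and 1 of 6 distal and connecting markers was at least 1.5-fold higher in the SH045-treated section. Thick ascending limb markers summed to 3744 against 2361 CPM, with 2 of 5 higher and 2 lower. Markers of macrophages summed to 3708 against 453 CPM and those of fibroblasts and smooth muscle to 3428 against 162 CPM. The low level of injury markers in the section labelled Vehicle goes against the obstruction given in its label. Whether that section shows an obstructed kidney is therefore in doubt, and every fold below is between the sections as labelled. The part of this difference in tissue make-up in the proteasome values below was not tested, and in such spots fewer cells of a type and less RNA per cell cannot be told apart.

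Promoter sequences are shown first for 3 members on which the results turn: Psmb6, the member of lowest ratio between the sections, its fellow catalytic gene Psmb5, and Psmd1, the member of highest ratio. Each is given 5′ to 3′ on the strand of the gene as the 250 bases before the start used in RefSeq's promoter table for GRCm38.p6, with the core of the antioxidant response element, TGACNNNGC, in capitals where it occurs. The windows are chr11:70525107-70525356 on the plus strand for Psmb6, where the start used lies inside the annotated gene, chr14:54617996-54618245 on the minus strand for Psmb5 and chr1:86064369-86064618 on the plus strand for Psmd1.
Psmb6: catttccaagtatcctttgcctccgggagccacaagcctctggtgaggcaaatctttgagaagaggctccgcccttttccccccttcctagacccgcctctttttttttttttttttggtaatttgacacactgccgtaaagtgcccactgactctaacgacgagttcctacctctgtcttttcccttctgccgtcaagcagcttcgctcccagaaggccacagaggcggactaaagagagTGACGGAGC
Psmb5: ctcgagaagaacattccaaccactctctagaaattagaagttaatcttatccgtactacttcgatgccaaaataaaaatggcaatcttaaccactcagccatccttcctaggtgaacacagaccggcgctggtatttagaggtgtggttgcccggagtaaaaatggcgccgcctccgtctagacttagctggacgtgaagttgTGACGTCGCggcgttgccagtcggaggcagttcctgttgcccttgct
Psmd1: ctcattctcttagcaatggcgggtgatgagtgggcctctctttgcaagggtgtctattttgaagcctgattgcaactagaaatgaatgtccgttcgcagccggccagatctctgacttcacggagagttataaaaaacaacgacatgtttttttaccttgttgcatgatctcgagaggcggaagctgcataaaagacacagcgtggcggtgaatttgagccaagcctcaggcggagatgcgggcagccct
The site of Psmb6 ends at the base before the start, and that of Psmb5 leaves 38 bases between site and start. The Psmd1 window holds no such site on either strand. Over the full 300-base windows, which add 50 bases after the start, 39 of the 47 members had an entry, with 42 promoters, and the element was found on either strand in 6 of the 42 (14.3%), against 12.4% of all 32851 promoters of the table. The other 4 genes with a site are Psmc6, Psmd9, Psmd12 and Psme4. The log2 ratios of the 6 genes between the sections ranged from -0.72 to 0.41, with a median of 0.03. The CCAAT box, searched as CCAAT on both strands, was found in 14 of the 42 (33.3%), against 37.4% of all promoters. It was found in 7 of 13 promoters of core genes and in 4 of 15 promoters of 19S genes.

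Summed over the 47 genes, proteasome transcripts stood at 5072 CPM (95% interval 5042 to 5101) in the SH045-treated section and at 4450 CPM (4387 to 4513) in the section labelled Vehicle, a fold of 1.14 (1.12 to 1.16). All intervals given here cover counting error only, and not the variation between mice or sections. Of the 47 genes 43 reached 10 CPM in at least 1 section and are called measured. Among them 9 were at least 1.5-fold higher in the SH045-treated section, namely Psma5, Psma7, Psmd1, Psmd7, Psmd8, Psmd11, Psme1, Psme2 and Psme3, while 52.2% of all 10463 measured genes passed that fold. Psmb6 was the 1 member at least 1.5-fold lower, against 11.8% of all genes. The median log2 ratio (SH045 over Vehicle, on log2 of CPM + 1) was 0.30 for the members and 0.63 for all measured genes, of which 75.7% lay above 0.

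Relative to that all-gene median, no member was 1.5-fold higher (25.4% of all genes were), and 11 were lower (25.7% of all genes): Psma2, Psma4, Psmb1, Psmb4, Psmb5, Psmb6, Psmb7, Psmd3, Psmd13, Psme4 and Psmg4. Genes within the same range of mean level as the measured members, 21.1 to 301 CPM, numbered 6481 and had a median of 0.51, with 46.2% of them higher and 12.4% lower. The sign of the members' median depends on the scaling: with TMM factors it was -0.28, with 0 members higher and 9 lower, and with median-of-ratios factors it was -0.35, with 0 higher and 11 lower. Directions of single genes and of classes below are therefore on the CPM scale, and shares among proteasome genes, which no scaling changes, are given beside them.

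**Figure D1:**
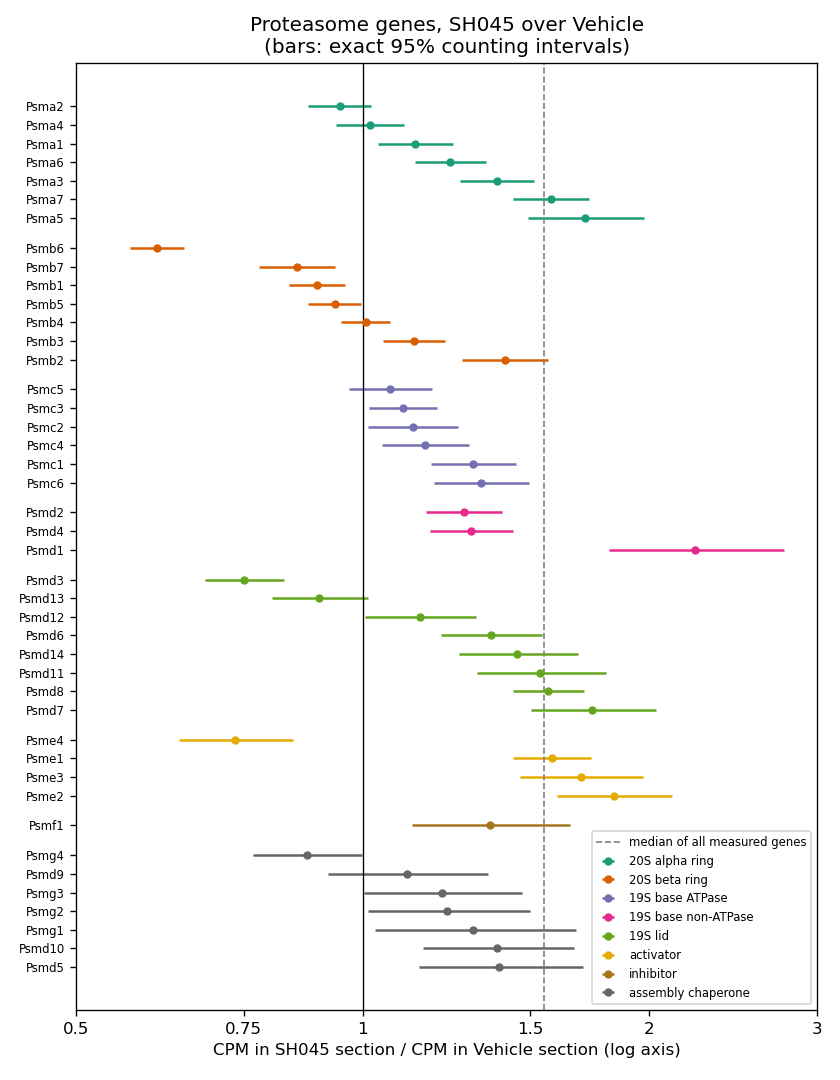
Fold of each measured proteasome gene, CPM in the SH045-treated section over CPM in the section labelled Vehicle (log axis), by class, with exact 95% counting intervals and a dashed line at the median of all measured genes. Most points lie between 1 and the dashed line, Psmb6 is farthest to the left at 0.608 and Psmd1 farthest to the right at 2.23.

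The alpha ring, which gates the core, summed to 1116 CPM in the SH045-treated section and 917 CPM in the section labelled Vehicle, a fold of 1.22 (1.18 to 1.26), with 2 of 7 measured members higher and none lower (52.2% and 11.8% of all genes), a smaller part than among all genes in the upward direction. Psma5 stood at 87.9 CPM (84.1 to 91.9) against 51.3 CPM (44.8 to 58.5), a fold of 1.71 (1.49 to 1.98). Psma7 stood at 193 CPM against 123 CPM, a fold of 1.58 (1.44 to 1.73). Over 4 blocks of spots by position, Psma5 ranged from 77.2 to 92.9 CPM in the SH045-treated section and from 47.9 to 54.5 CPM in the other, so the blocks of the sections did not overlap. Blocks apart are common: 56.7% of all measured genes had them apart and higher in the SH045-treated section, and 13.5% apart and lower.

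The other alpha genes were within 1.5-fold. Psma3 stood at 175 against 127 CPM and Psma6 at 172 against 140 CPM, and both had block ranges that did not overlap. Psma1 (144 against 127 CPM), Psma2 (178 against 189 CPM) and Psma4 (164 against 161 CPM) had overlapping block ranges. The range within the section labelled Vehicle was wide for Psma1, from 77.0 to 168 CPM over its blocks. Psma8, the testis-specific alternative to Psma7, had 7 UMIs in the SH045-treated section and none in the other.

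On the CPM scale the beta ring was the 1 class whose summed level was lower in the SH045-treated section, at 1396 against 1502 CPM, a fold of 0.929 (0.905 to 0.955). Its lowest member was Psmb6, the caspase-like catalytic subunit gene (ENSMUSG00000018286, chr11:70525324-70527858), whose promoter is shown above. Psmb6 stood at 171 CPM (165 to 176) in the SH045-treated section and at 281 CPM (265 to 297) in the section labelled Vehicle, a fold of 0.608 (0.570 to 0.649). Its blocks lay between 155 and 183 CPM in the first and between 273 and 284 CPM in the second, with no overlap. The fold of Psmb6 lay below 1 with TMM and median-of-ratios factors as well, since both lower every ratio.

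The other catalytic genes were within 1.5-fold. Psmb7, the trypsin-like subunit gene (chr2:38588046-38643952), stood at 113 against 133 CPM, a fold of 0.852 (0.778 to 0.935), while its blocks did not overlap. Psmb5, the chymotrypsin-like subunit gene (chr14:54614120-54617995), stood at 247 against 264 CPM, a fold of 0.935 (0.877 to 0.997), with overlapping blocks. Together the 3 catalytic genes summed to 530 CPM in the SH045-treated section and 678 CPM in the section labelled Vehicle.

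The non-catalytic beta genes lay on both sides of 1. Psmb2 stood at 134 against 94.7 CPM, a fold of 1.41 (1.27 to 1.57) with blocks apart, and Psmb3 at 216 against 191 CPM. Psmb4 was level, at 302 against 299.9 CPM, and Psmb1 stood at 214 against 239 CPM. Psmb11, the catalytic subunit gene of the thymus proteasome, had no UMI in either section, which allows up to 0.165 CPM in the SH045-treated section and up to 0.852 CPM in the other (95% upper limits).

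The 19S base held the member of highest ratio. Psmd1 (chr1:86064619-86139295), which encodes the large scaffold subunit of the base, stood at 50.6 CPM (47.7 to 53.6) in the SH045-treated section and at 22.6 CPM (18.4 to 27.6) in the section labelled Vehicle, a fold of 2.23 (1.82 to 2.77). Its lowest block was at 47.4 CPM there, above the highest of the other section at 26.4 CPM. Psmd2, the other scaffold subunit gene, stood at 159 against 124 CPM, and Psmd4, which encodes a ubiquitin receptor, at 135 against 104 CPM, both within 1.5-fold and both with blocks apart.

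The 6 ATPase genes of the base, whose products form the unfolding ring, moved within a narrow range, and none passed 1.5-fold. They summed to 736 CPM in the SH045-treated section and 629 CPM in the section labelled Vehicle, a fold of 1.17 (1.12 to 1.22). Psmc6 (105 against 78.6 CPM) and Psmc1 (129 against 98.7 CPM) had blocks apart. The blocks overlapped for Psmc4 (113 against 97.1 CPM), Psmc2 (103 against 91.5 CPM), Psmc3 (174 against 158 CPM) and Psmc5 (112 against 105 CPM).

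The lid genes had the widest spread of the 19S classes, with 3 of 8 higher and none lower at 1.5-fold, against 52.2% and 11.8% of all genes. Psmd7, whose product pairs with the deubiquitinase, stood at 78.6 against 45.1 CPM, a fold of 1.74. Psmd8 stood at 212 against 136 CPM (fold 1.57) and Psmd11 at 65.7 against 42.7 CPM (fold 1.54), both structural subunits of the lid. The blocks of these 3 genes did not overlap between sections. Over the whole lid, blocks lay apart and higher for 62.5% of the genes and apart and lower for 12.5%, against 56.7% and 13.5% of all genes.

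Psmd3 (chr11:98682554-98695978), another structural lid gene, lay on the other side, at 94.4 against 126 CPM, a fold of 0.751 (0.683 to 0.827) with blocks apart. Psmd14, the gene of the lid's deubiquitinase, stood at 72.9 against 50.1 CPM, and Psmd6 at 95.5 against 70.0 CPM. Psmd12 (69.0 against 60.1 CPM) and Psmd13 (75.1 against 83.4 CPM) had overlapping blocks. As a class the lid summed to 764 against 613 CPM.

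**Figure D2:**
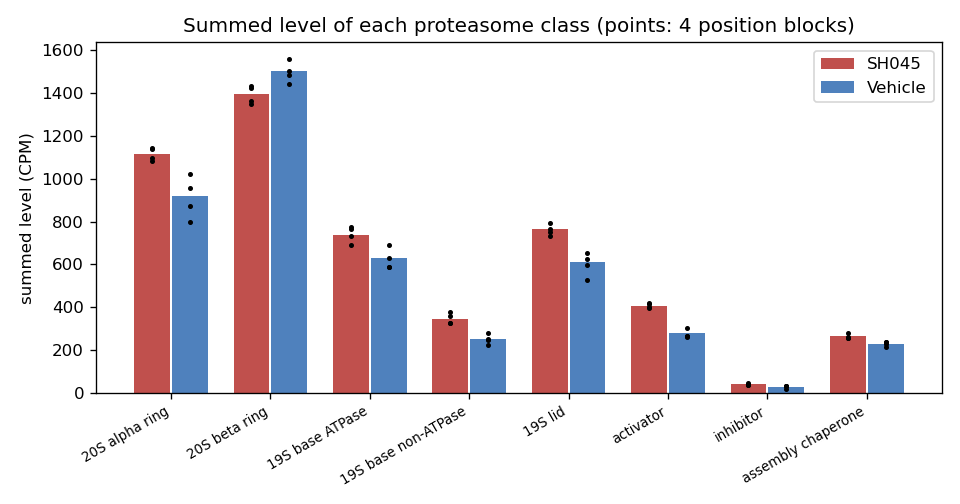
Summed level of each class of proteasome genes in CPM (bars, from 0) in the SH045-treated section and the section labelled Vehicle, with points for the 4 position blocks of each section. The beta ring is the class with the lower bar in the SH045-treated section (1396 against 1502 CPM), and the activators have a clear gap (406 against 277 CPM).

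Activators are caps that open the core without the 19S particle. Psme1 and Psme2 encode the alpha and beta subunits of PA28, which assists antigen processing and is induced by interferon. Psme1 stood at 183 against 116 CPM, a fold of 1.58 (1.44 to 1.74). Psme2 stood at 97.5 against 53.1 CPM, a fold of 1.84 (1.60 to 2.11). Psme3, the gene of the nuclear PA28 gamma, stood at 78.7 against 46.4 CPM, a fold of 1.69 (1.46 to 1.97). In contrast Psme4 (chr11:30771775-30881150), the gene of the large activator PA200, stood at 45.5 against 61.9 CPM, a fold of 0.735 (0.642 to 0.844). The blocks of all 4 genes lay apart, 3 higher and 1 lower, as they did for 56.7% and 13.5% of all genes.

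PA28 alpha and beta together with gamma made up 16.3% (15.96 to 16.62%) of PA28 plus 19S UMIs in the SH045-treated section and 12.6% (11.9 to 13.4%) in the section labelled Vehicle. Psme2b, a close copy of Psme2 between which reads may be divided, had 47 UMIs in the SH045-treated section and none in the other. It stood at 2.10 CPM (1.54 to 2.79) in the first, while no UMI allows up to 0.852 CPM in the second. Its ratio to a floor of 3 counts was 3.03, which is not a lower limit of the fold. The inhibitor gene Psmf1, whose product PI31 binds the core, stood at 39.6 against 29.1 CPM, a fold of 1.36 (1.13 to 1.65).

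The assembly chaperones, which build the rings and the base but are not part of the finished particle, all lay within 1.5-fold. The alpha ring chaperone genes Psmg1, Psmg2 and Psmg3 stood at 23.9, 34.3 and 36.1 CPM against 18.3, 28.0 and 29.8 CPM, and Psmg4 at 56.3 against 64.5 CPM. The base chaperone genes Psmd5, Psmd9 and Psmd10 stood at 37.97, 32.1 and 43.5 CPM against 27.3, 28.9 and 31.4 CPM. Psmc3ip was below 10 CPM in both sections, with 132 and 18 UMIs. Over all classes the blocks lay apart and higher in the SH045-treated section for 22 members (56.7% of all genes) and apart and lower for 4, Psmb6, Psmb7, Psmd3 and Psme4 (13.5% of all genes).

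Core genes were set against 19S genes as a share of their joint UMIs, which does not depend on the scaling of a section. The core took 57.7% (57.4 to 58.0%; 56244 of 97522 UMIs) in the SH045-treated section and 61.9% (61.1 to 62.6%; 10470 of 16927 UMIs) in the section labelled Vehicle, a difference of -4.18 percentage points (-4.98 to -3.39). Blocks ranged from 56.6 to 59.3% and from 60.3 to 63.3%, so every block of the SH045-treated section lay below every block of the other. In CPM the core stood at 2512 against 2419 and the 19S genes at 1844 against 1492, folds of 1.04 (1.02 to 1.06) and 1.24 (1.20 to 1.27).

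The difference lay in the beta ring. Of alpha ring plus 19S UMIs the alpha genes took 37.7% (37.3 to 38.1%) in the SH045-treated section and 38.1% (37.1 to 39.0%) in the other, with overlapping intervals and blocks. Of the core's UMIs the beta genes took 55.6% against 62.1%, with blocks from 55.4 to 55.8% and from 58.6 to 66.1%. Within the 19S particle the lid took 41.4% against 41.1%.

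Psmb6 made up 12.2% of the beta ring's UMIs in the SH045-treated section (blocks 11.4 to 12.9%) and 18.7% in the section labelled Vehicle (blocks 17.8 to 19.7%). Without Psmb6 the difference in the core share was -2.96 percentage points, and leaving out each of the 33 core and 19S members in turn moved it between that value and -4.96, which was reached without Psmd3. The beta ring without Psmb6 still took 52.3% of the remaining core UMIs against 57.1%, with blocks from 52.0 to 52.5% and from 53.2 to 61.6%.

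The core share moved with the mitochondrially encoded share in both sections. With the spots of each section ordered by mitochondrial share and cut into 3 groups of like size, the core share was, from the lowest group to the highest, 56.8, 57.1 and 59.1% in the SH045-treated section and 59.9, 62.6 and 63.2% in the section labelled Vehicle. The mitochondrial shares of these groups were 2.28, 3.58 and 6.69% and 2.45, 9.39 and 21.2%. Between the highest group of the SH045-treated section and the lowest of the section labelled Vehicle, a choice made after seeing the data, the core share differed by -0.72 percentage points (-2.11 to 0.66), and this interval includes 0. That pair is unlike in mitochondrial share (6.69 and 2.45%). The lowest groups of both sections, of nearer mitochondrial share (2.28 and 2.45%), had core shares of 56.8 and 59.9%. The part of the mitochondrial share in the difference between the sections was not tested.

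Psmb6 did not follow that order: it stood at 168, 171 and 172 CPM in the SH045 groups and at 268, 316 and 246 CPM in the groups of the section labelled Vehicle, so every SH045 value lay below every value of the other section. Core genes did not share 1 order over the groups of the section labelled Vehicle. Psma1 stood at 167, 129 and 77.8 CPM, Psma2 at 238, 185 and 135 CPM, Psma4 at 172, 169 and 138 CPM and Psmb2 at 111, 98.7 and 69.5 CPM. Each of these was lower with a higher mitochondrial share. The opposite order was that of Psmb3 (163, 185 and 232 CPM), Psma3 (118, 125 and 140 CPM), Psma7 (108, 124 and 137 CPM), Psmb5 (239, 273 and 281 CPM) and Psmb7 (125, 131 and 144 CPM). Psma5 (45.7, 60.8 and 44.4 CPM), Psma6 (148, 154 and 108 CPM), Psmb1 (226, 246 and 244 CPM) and Psmb4 (255, 331 and 308 CPM) were highest in the middle group. With Psmb6 these are all 14 measured core genes, a listing made after their values were seen. The beta ring's part of the core in that section was 58.2, 62.5 and 66.2% over the same groups.

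**Figure D3:**
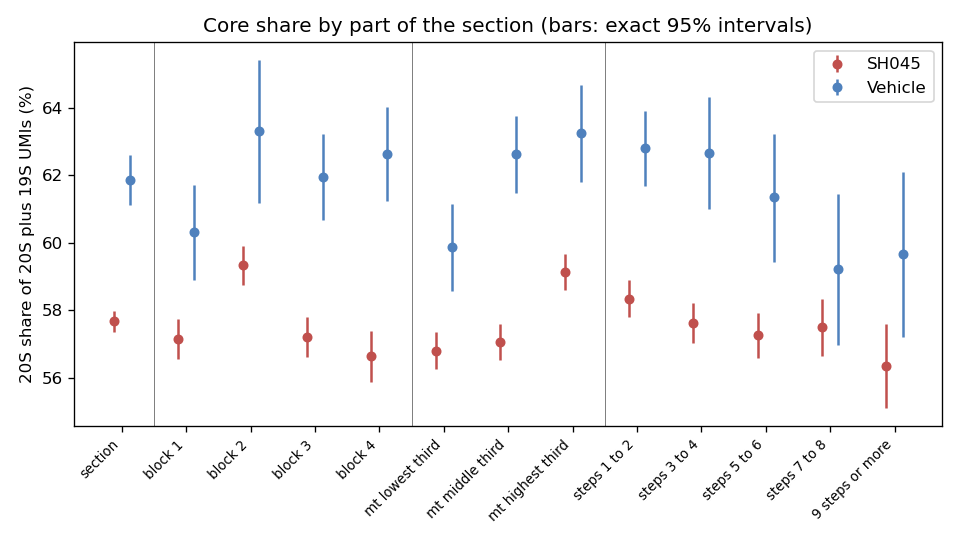
Share of core UMIs among core plus 19S UMIs in percent, with exact 95% intervals, for each whole section, its 4 position blocks, 3 groups of spots by mitochondrial share (mt) and bands of grid steps from the tissue edge. The SH045 points lie below the points of the section labelled Vehicle in each pair. The highest mitochondrial group of the SH045-treated section (59.1%) lies close to the lowest of the other (59.9%), though these groups are unlike in mitochondrial share. The lowest mitochondrial group of the SH045-treated section is at 56.8%.

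Toward the inside of the tissue the core share was lower in both sections: from the outermost grid steps to 9 steps or more it went from 58.3 to 56.3% in the SH045-treated section and from 62.8 to 59.7% in the section labelled Vehicle. The mitochondrial share over the same bands was 4.09 and 5.89% in the SH045-treated section but 14.4 and 2.88% in the other. By depth of the spots, the core share of the SH045-treated section was 56.2, 57.4 and 58.4% from the shallowest to the deepest of 3 groups, and that of the section labelled Vehicle was 62.6, 61.1 and 62.0%, so the sections did not share an order by depth.

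The inducible catalytic genes, which are not members, were compared with the constitutive genes whose sites they take. Psmb8 stood at 59.3 against 20.8 CPM, Psmb9 at 19.9 against 6.93 CPM and Psmb10 at 75.3 against 34.7 CPM, each at least 1.5-fold higher in the SH045-treated section. Their part of the catalytic UMIs of both kinds was 22.5% (21.9 to 23.2%) in the SH045-treated section and 8.43% (7.49 to 9.45%) in the section labelled Vehicle. Blocks ranged from 19.2 to 25.1% and from 6.70 to 9.95%, with no overlap.

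Each pair showed the same order. Psmb8 took 19.4% of its pair with Psmb5 in the SH045-treated section and 7.30% in the other, Psmb9 took 10.5% against 2.41% of its pair with Psmb6, and Psmb10 took 40.0% against 20.7% of its pair with Psmb7. This share rose with the level of macrophage markers, but not with that list alone. Over 3 groups of spots ordered by the macrophage list it was 16.2, 22.2 and 28.3% in the SH045-treated section and 6.10, 7.10 and 11.6% in the section labelled Vehicle, and all 8 macrophage markers were measured. The median spot of these groups held 2014, 3227 and 5183 CPM of macrophage markers in the first and 0, 327 and 790 CPM in the second. Every SH045 median thus lay above every median of the other section, and the ranges of single spots were not compared. The share also rose in both sections over the injured tubule list and over the lymphoid and plasma list. Over the latter it was 19.8, 22.5 and 25.3% under SH045 and 7.49, 7.87 and 9.42% in the other section. It fell with rising mitochondrial share in both (25.3, 23.5 and 19.2%, then 9.74, 8.81 and 6.31%). In the SH045-treated section alone it rose over the podocyte and collecting duct lists and fell over the thick ascending limb list. The part of macrophages in the difference was not tested.

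**Figure D4:**
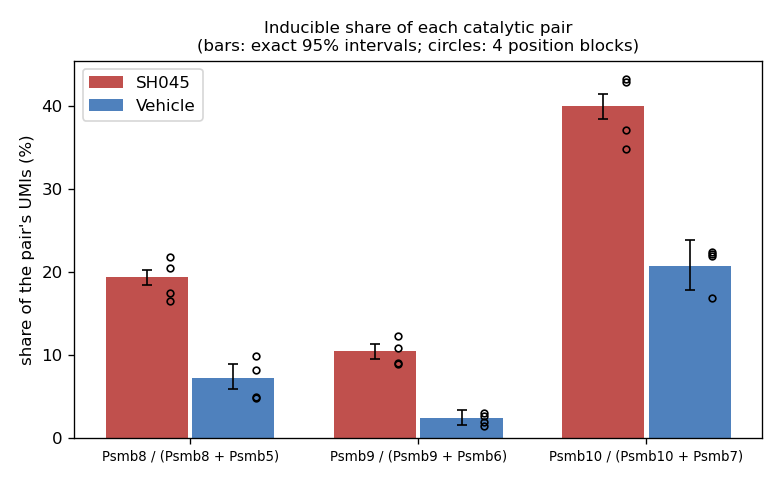
Share of the inducible gene in the UMIs of each catalytic pair in percent (bars from 0, exact 95% intervals, circles for the 4 position blocks), for the SH045-treated section and the section labelled Vehicle. In each of the 3 pairs all SH045 blocks lie above all blocks of the other section, for example 40.0% against 20.7% for Psmb10 over the whole sections.

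Across spots the summed members varied little more than counting error. With each spot thinned to 2500 UMIs, the median spot held 12 UMIs of the 47 genes (2 to 27) among 788 SH045 spots and 11 (4 to 22) among 561 spots of the section labelled Vehicle. The SD over spots was 3.71 and 3.42, where counting error alone gives 3.54 and 3.34. At 10000 UMIs per spot, which 768 SH045 spots reached, the median was 50 (28 to 75) and the SD 7.87 against 7.11 from counting error. Over 3 groups of spots ordered by each cell type marker list, the summed level stayed between 4916 and 5185 CPM in the SH045-treated section and between 4339 and 4593 CPM in the section labelled Vehicle. Outside these ranges lay SH045 spots at 9 or more steps from the edge, at 4821 CPM, those at 3 to 4 steps, at 5189 CPM, and the group of highest mitochondrial share in the section labelled Vehicle, at 4143 CPM against 4583 CPM in its middle group.

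**Figure D5:**
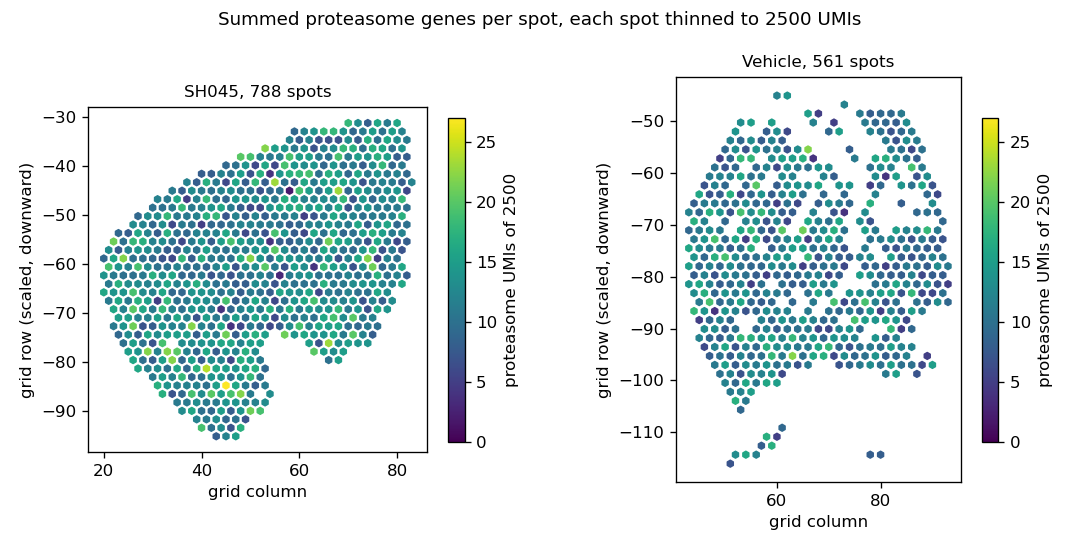
Summed UMIs of the 47 genes in each spot after thinning to 2500 UMIs (colour, the same scale in both panels), at the spot's grid position in the SH045-treated section (788 spots) and the section labelled Vehicle (561 spots). Values run from 2 to 27 and from 4 to 22, and neighbouring spots of high and low counts are mixed in both sections.

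Core and 19S counts were nearly unrelated from spot to spot: the Pearson correlation was 0.08 in the SH045-treated section and 0.04 in the section labelled Vehicle (Spearman 0.07 and 0.03), and 0.02 for SH045 spots at 10000 UMIs. Over 465 pairs of 31 member genes the median correlation was 0.0038. Counts this sparse give no finding on whether subunit genes vary together, and spots share a library and a fixed total. The 10 genes outside the lists with the highest correlation with the summed members in SH045 spots at 10000 UMIs, among 1697 genes of at least 100 CPM, were Cstb (0.19), Anxa3, Ctss, Cpe, Hspb1, Tmsb10, Cyb5r3, Ppia, C3 and Rpl22 (0.15). In the section labelled Vehicle their correlations, at 2500 UMIs, lay between -0.11 and 0.08.

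Outside the members, the wider ubiquitin and proteasome pathway was read from 6 lists with 52 measured genes, of which 26 were at least 1.5-fold higher in the SH045-treated section and 1 was lower, with a median log2 ratio of 0.57 (52.2% and 11.8% of all genes). Of 6 further subunit and maturation genes, Akirin2, a factor for nuclear import of proteasomes, stood at 70.9 against 31.9 CPM and Ecpas, a proteasome adaptor gene, at 54.3 against 35.1 CPM, both higher. The thioredoxin-like Txnl1 (142 against 98.4 CPM), the 19S subunit gene Sem1 (358 against 269 CPM), the core maturation gene Pomp (205 against 171 CPM) and the ubiquitin receptor gene Adrm1 (68.3 against 67.0 CPM) were within 1.5-fold.

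Among genes that encode ubiquitin itself, Rps27a, in which it is fused to a ribosomal protein, stood at 1330 against 988 CPM. The polyubiquitin gene Ubb stood at 1091 against 1328 CPM, and both were within 1.5-fold. Of the 4 genes of this list, 1 was at least 1.5-fold higher and none was lower (52.2% and 11.8% of all genes). The log2 ratios of the list ranged from -0.33 to 0.92. Of 15 ubiquitin-activating and conjugating enzyme genes 9 were higher (60.0%, against 52.2% of all genes). The largest ratios were those of Uba6 (18.4 against 5.08 CPM), Ube2d1 (42.7 against 14.3 CPM) and Ube2g1 (57.04 against 21.3 CPM). The smallest were those of Cdc34 (77.1 against 79.7 CPM), Ube2a (67.8 against 59.8 CPM) and Ube2k (83.8 against 68.9 CPM).

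Of 12 shuttle and segregase genes, which bring ubiquitinated proteins to the proteasome, 6 were higher, led by Ubqln2 (45.4 against 18.5 CPM), Rad23b (131 against 65.4 CPM) and Ubqln4 (57.8 against 31.7 CPM). Vcp, the gene of the segregase p97, stood at 361 against 387 CPM and Faf2 at 41.6 against 33.5 CPM. Among 7 genes of proteasome-bound deubiquitinases, ligases and zinc finger partners, 4 were higher (57.1%, against 52.2% of all genes) and 1 was lower (14.3%, against 11.8%). Zfand2a (21.6 against 9.24 CPM), Zfand5 (110 against 51.3 CPM), Ube3a (57.1 against 33.3 CPM) and Usp14 (50.7 against 33.0 CPM) were higher, and Zfand2b was lower (21.1 against 34.7 CPM). Uchl5 stood at 29.8 against 28.9 CPM and Ube3c at 45.7 against 41.4 CPM.

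Of 9 genes around NRF1 and NRF2, which act on the element shown in the promoters above, 5 were higher (55.6%, against 52.2% of all genes). Maff, a small Maf partner gene, stood at 49.6 CPM against 0.462 CPM, the latter from 2 UMIs, a ratio of 107 with a counting interval from 29.6 to 887. Mafk stood at 51.7 against 18.3 CPM and Nfe2l2, the gene of NRF2, at 157 against 60.1 CPM. Nfe2l1, the gene of NRF1, stood at 142 against 109.5 CPM, within 1.5-fold, as were Keap1 (48.95 against 54.3 CPM), Mafg (41.9 against 42.3 CPM) and Ngly1 (31.3 against 25.6 CPM). No measure of protein, and so of NRF1 or NRF2 activity, is part of these data.

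Other large complexes of many subunits give a measure of scale for the proteasome values. The CCT chaperonin had 4 of 8 genes higher (52.2% of all genes) and a median log2 ratio of 0.64, with Cct4 at 199 against 111 CPM at the top and Cct6a at 162 against 144 CPM at the bottom. The COP9 signalosome, whose layout resembles that of the lid, had 1 of 9 higher, Cops7b (12.0 against 4.62 CPM), a median of 0.43, and Gps1 lowest at 92.5 against 105 CPM. The translation factor eIF3 had 5 of 13 higher and a median of 0.45, between Eif3e (127 against 50.4 CPM) and Eif3l (163 against 165 CPM). The members' median of 0.30 lay below that of these 3 complexes, and no test of the difference was made. By summed level the order differed. The fold was 1.14 (1.12 to 1.16) for the members, 1.11 (1.06 to 1.16) for COP9, 1.38 for eIF3 and 1.52 for CCT.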

How the data were processed

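The deposited files hold raw UMI counts per gene and spot for both sections, with gene symbols and grid positions. Space Ranger 2.0.1 made them, per the file headers, with build mm10, per the submitters' processing notes. Alignment settings and annotation release were not given in the sources used here. The tissue flag of the Vehicle positions table covers 570 of the 676 spots of its matrix, so all 676 were used and the flagged spots alone were an alternative.

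The members, gene lists and alternatives were chosen with earlier results of these data known. Counts were summed per section and scaled to CPM. The log2 ratio is the difference of log2(CPM + 1), which understates ratios of low genes. Genes needed 10 CPM in either section and were called at 1.5-fold. Levels have exact Poisson, folds exact conditional binomial and shares exact Clopper-Pearson 95% intervals. No p-value is given, because each group has 1 section. Core share is 20S UMIs over 20S plus 19S UMIs, with Psmd5, Psmd9 and Psmd10 counted as chaperones. Spots were split into 4 position blocks, and thinned at random to 2500 UMIs for spot values, leaving out 2 SH045 and 115 Vehicle spots. No clustering and no doublet caller were used. Every member is named, and of each pathway list up to 3 genes of highest and 3 of lowest ratio; for the 3 other complexes the extremes are named. Some pathway genes that this rule names are not reported here. Promoters are from RefSeq, GRCm38.p6, with all 47 symbols matched in its gene table. Scripts were tested on simulated data. Software was Python 3.11.15, numpy 2.4.6, pandas 2.3.3, scipy 1.17.1 and, for TMM factors as an alternative, edgeR 4.0.16 in R 4.3.3.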

Additional observations from a re-analysis of the deposited data

How the results depend on the processing

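The count of members higher in the SH045 section (9) was within 1.5 times its value under 7 of 13 alternatives, and that of lower members (1) under 8 of 13. The higher count was 0 with TMM factors, 0 with median-of-ratios factors, 5 with totals that leave out mitochondrially encoded genes, 21 at a lower fold threshold, 1 at 2-fold and 0 relative to the median of all genes. The lower count was 9, 11, 3 (at the lower fold), 0 (at 2-fold) and 11 (relative to all genes) for the same settings, and 1 without mitochondrially encoded genes. The median log2 ratio of 0.30 turned to -0.28 with TMM and -0.35 with median-of-ratios factors, which also moved the median of all genes from 0.63 to 0.03 and -0.05, and kept its sign under the other 8. The core share difference of -4.18 percentage points was negative under all 18 alternatives, which reuse the same sections and in part only leave out a position block. It was -2.94 with Vehicle spots under 10% mitochondrially encoded counts, -4.99 with the activators added to the 19S genes and -2.96 without Psmb6. Between the SH045 spots of highest mitochondrial share and the Vehicle spots of lowest share (1 of 3 groups each) it was -0.72 (-2.11 to 0.66), an interval that includes 0. The last 2 were added after seeing the data. As a difference of mean log2 levels it was -0.22, a value on another scale, and leaving out a position block gave -4.81 to -3.88. The spot correlation of core and 19S counts in SH045 was -0.0282 with another thinning seed and 0.0175 at 10000 UMIs, and in Vehicle -0.0204 at 1000 UMIs, so its sign is not settled. No paired analysis was possible because each group has 1 section. Depth limits the section labelled Vehicle most: Psmd1 rests there on 98 UMIs, and a gene with 3 UMIs would stand at 0.693 CPM.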
